A study of Mus musculus with 3 samples.

Results

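Cluster 6 was a set of 131 nuclei among 1879 profiled by single-nucleus ATAC-seq, which maps open chromatin by letting the transposase Tn5 insert adapters into accessible DNA inside nuclei. Its members were the nuclei that carried the cluster number 6 in the table deposited with the data, namely 5 from E12.5, 76 from E13.5 and 50 from E15.5 (days of embryonic development). The 3 libraries, 1 per stage, were made from wild-type embryos of the C57BL/6JRj mouse strain that were littermates of embryos used for spatial maps. Frozen 70 µm sections were dissociated and the nuclei sorted on 7-AAD. No treatment or transgene was involved, the study did not determine the sex of the embryos, and how many went into a library was not given in the sources used here. Cluster 6 was set beside neuron cluster 0 (270 nuclei, 11, 87 and 172 in stage order), beside cluster 9 (81 nuclei, 11, 50 and 20) and beside all 9 other clusters except 2 and 4, which were left out for their low depth.

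Excitatory neurons of the cerebral cortex arise in the pallium, the dorsal part of the telencephalon, while most inhibitory GABAergic neurons of the forebrain arise in its ventral part. In the pallium, the basic helix-loop-helix (bHLH) factors Neurog1 and Neurog2 commit progenitors to a glutamatergic fate, and Neurod1, Neurod2 and Neurod6 follow in the newborn and maturing neurons. Factors of this family bind the E-box, a short palindrome-like DNA word of the form CANNTG.

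Cluster 6 held 3.27%, 7.84% and 6.61% of the nuclei of its libraries in stage order, with exact binomial 95% intervals of 1.07 to 7.46, 6.22 to 9.71 and 4.95 to 8.63. Its nuclei had medians of 95707, 67887.5 and 41338 unique fragments in the same order. Together the nuclei gave 450324, 5964243 and 3115959 fragments, so the sums of E12.5 rest on few counts and are given as values only. The share of fragments within 1000 bp upstream to 100 bp downstream of a transcription start site (TSS) was 10.5% at E13.5 and 11.7% at E15.5, against 9.30% and 10.7% in cluster 0. With each nucleus thinned to 1000 fragments the order at E13.5 turned, at 11.3% against 11.6%, while E15.5 had 16.3% against 14.0%. All 5 nuclei of E12.5, 9 of E13.5 and 13 of E15.5 held more than 2 times the median fragment number of their library. No nucleus of cluster 6 was linked to another barcode by shared fragments, and none carried the 1 barcode that occurred in more than 1 library.

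General neuronal genes were described first. Of 6 marker genes given for the cluster, Tubb3, Elavl3, Neurod2 and Snap25 were more accessible than in the 9 other clusters. This held in both of the E13.5 and E15.5 libraries. The markers were chosen with earlier results of these data known, so their values are no check on the label. Neurod2 is also on the pallial list used below. Here and below a gene was called higher or lower when its summed fragments over the gene body and 2 kb upstream, as CPM (counts scaled to the total over all genes), differed at least 1.5-fold with an exact 95% interval that left out 1, in the same direction at E13.5 and E15.5. This call is a description and not a test, because the clusters were built from the same fragments and each stage is a single library. The intervals cover counting error only. By this call 1.98% of 20202 genes were higher in cluster 6 and 3.33% lower, and under scaling to the median ratio of all genes the calls became 589 higher and 421 lower in place of 401 and 673. The median ratio of all genes was 0.925 at E13.5 and 0.949 at E15.5. Of 19 pan-neuronal genes 5 were higher (Tubb3, Elavl3, Elavl4, Snap25 and Myt1l) and 0 lower, with medians of 1.78 and 1.42. Tubb3, a tubulin of neurons, had 85.6 and 78.2 CPM at E13.5 and E15.5, against 33.6 and 42.1 in the other clusters. Dcx and Stmn2 were above the other clusters at E13.5, at 2.35 and 1.56 times, but reached only 1.21 and 1.18 at E15.5 and were not called. Of the 6 genes only Neurod2 was called against cluster 0, where Tubb3 had 73.6 and 85.6 CPM. The question that follows was which neurons cluster 6 held.

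Genes of pallial glutamatergic neurons had the largest share of higher genes of any list compared between clusters 6 and 0. The lists, like the markers, were chosen with earlier results of these data known. This rank is therefore a description and no check on the label. Of 18005 genes with enough fragments, 1.32% were higher and 1.29% lower in cluster 6, and of the 15 pallial genes 12 were higher and 0 lower. The median ratio of the list was 2.23 at E13.5 and 2.01 at E15.5, while that of all genes was 0.984 and 0.985. At 2-fold 7 of the 15 were still higher. When only the promoter was counted 6 of the 12 kept their call, and a gene with too few fragments there could not keep it. Neurod2 had 58.6, 65.0 and 67.1 CPM in cluster 6 in stage order. In cluster 0 it had 6.18, 17.6 and 18.3 CPM, so cluster 6 stood above cluster 0 at every stage. The ratio was 3.70 at E13.5 (95% interval 2.79 to 4.96) and 3.66 at E15.5 (2.83 to 4.74). Neurod6, the closest relative of Neurod2 in these neurons, had 35.2 and 30.5 CPM at E13.5 and E15.5 against 7.41 and 8.79. Its ratios were 4.75 (3.11 to 7.49) and 3.47 (2.36 to 5.09). At E12.5 the order of Neurod6 was the opposite, with 3.66 CPM from a single fragment in cluster 6 and 13.9 CPM in cluster 0.

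The laminar and areal regulators of the cortex followed the same pattern at E13.5 and E15.5. Tbr1, which specifies early-born deep-layer neurons, had 68.7 and 64.9 CPM against 23.6 and 30.5, with ratios of 2.91 and 2.13. Fezf2, which directs subcerebral projection neurons, had 45.8 and 32.7 CPM against 15.9 and 19.6. Both genes thus stood above cluster 0 at these stages. Emx1 and Emx2, which pattern the dorsal telencephalon, were 2.35 and 2.23 times as high at E13.5 and 2.28 and 1.90 times at E15.5. Bhlhe22 had ratios of 3.28 and 2.58, Zbtb18 of 1.78 and 1.92, and the vesicular glutamate transporter Slc17a7 of 2.11 and 1.78. The long genes Nfia and Nfib were also higher, and Nfib had the largest count of any pallial gene, with 812 and 840 CPM against 375 and 343. The 3 pallial genes not called were Mef2c, Cux2 and Lmo3, at ratios of 0.791 and 1.21, 1.10 and 1.06, and 0.897 and 0.730. In the 5 nuclei of E12.5, Fezf2 rested on a single fragment.

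**Figure D1:**
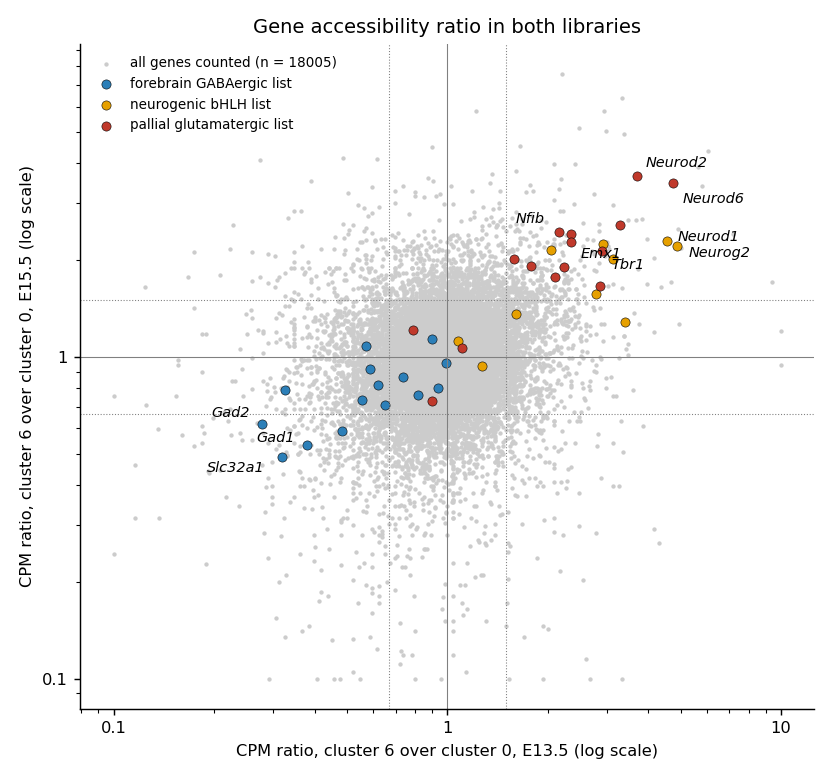
Each point is a gene, placed by its CPM ratio of cluster 6 over cluster 0 at E13.5 (x axis) and at E15.5 (y axis), both on log scales with ratios beyond 0.1 and 10 drawn at the edge; dotted lines mark 1.5-fold. The pallial glutamatergic genes (red) lie mostly in the upper right, with medians of 2.23 and 2.01, and the forebrain GABAergic genes (blue) mostly in the lower left, with medians of 0.587 and 0.792.

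The promoter of Neurod2 is shown because this gene ranked above the other pallial genes against cluster 0 and because fragments at its promoter alone, from 1000 bp upstream to 100 bp downstream of the TSS, gave a larger geometric mean ratio over both libraries (7.05) than those over the gene (3.68). The 300 bases are from RefSeq on GRCm38, which is mm10, and run from 250 before to 50 after the start. Capitals mark a CAGATG E-box and a match to the palindromic Ebf motif, each searched on both strands. CAGATG occurred in 17.2% of 32851 promoters of this length and the Ebf motif in 0.904%, and the promoters of Neurod6, Neurog2 and Neurod1 held none of the words searched.
Neurod2 promoter, chr11:98329596-98329895, minus strand: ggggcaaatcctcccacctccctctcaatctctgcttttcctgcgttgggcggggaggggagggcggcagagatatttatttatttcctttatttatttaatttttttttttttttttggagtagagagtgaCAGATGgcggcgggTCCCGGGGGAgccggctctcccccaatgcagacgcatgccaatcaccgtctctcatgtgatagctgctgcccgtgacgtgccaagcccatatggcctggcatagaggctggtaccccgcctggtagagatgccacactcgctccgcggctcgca

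Genes of the neurogenic bHLH cascade were also more accessible, and 5 of 10 were higher than in cluster 0 with 0 lower. Over all genes the shares were 1.32% and 1.29%. The medians of the list were 2.86 and 1.80. Neurog2 had 69.8 CPM at E13.5 and 44.4 at E15.5 in cluster 6, against 14.3 and 20.1 in cluster 0. The ratio of Neurog2 was 4.89 (3.61 to 6.73) and then 2.21 (1.66 to 2.93). Neurod1 had ratios of 4.55 and 2.30, Neurog1 of 2.92 and 2.24, Nhlh1 of 3.13 and 2.02 and Nhlh2 of 2.05 and 2.15. These genes were nearer to cluster 0 at E15.5 than at E13.5 except for Nhlh2, a difference that was not tested. Eomes, which marks intermediate progenitors of the cortex, had a ratio of 3.42 at E13.5 but 1.28 (0.888 to 1.82) at E15.5 and was not called. The neural progenitor list also lay above cluster 0, with medians of 1.17 and 1.36, 10 of 13 genes above 1 at both stages and 0 below 1 at both, though Pax6 alone was called. It summed to 704 and 724 CPM in cluster 6 against 562 and 462 in cluster 0, and its part in the bHLH values was not tested. The counted span of Neurod1 overlaps that of Cerkl and shares fragments with it.

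Genes of forebrain GABAergic neurons went the other way. None of 15 was higher and 4 were lower than in cluster 0, namely Gad1, Gad2, Slc32a1 and Dlx6, and the list medians were 0.587 and 0.792. Over all genes 1.32% were higher and 1.29% lower. Gad1, a GABA-synthesizing enzyme, had 91.6, 50.1 and 73.8 CPM in cluster 6 in stage order and 239, 132 and 139 in cluster 0. Gad2, the other such enzyme, had 40.1 and 61.0 CPM at E13.5 and E15.5 against 144 and 98.6. The vesicular GABA transporter Slc32a1 had ratios of 0.320 (0.240 to 0.423) and 0.488 (0.342 to 0.680). All 4 lower genes stood below 1 at both stages. Among Dlx genes, which specify ventral forebrain neurons, Dlx1, Dlx2 and Dlx5 had ratios of 0.555, 0.570 and 0.326 at E13.5 but 0.733, 1.08 and 0.792 at E15.5, so that only Dlx6 was called. In the striatal list Six3 and the dopamine receptor Drd2 were lower out of 11 genes. At E12.5 the order of Gad2 was reversed, with 88.0 CPM in cluster 6 and 58.7 in cluster 0.

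**Figure D2:**
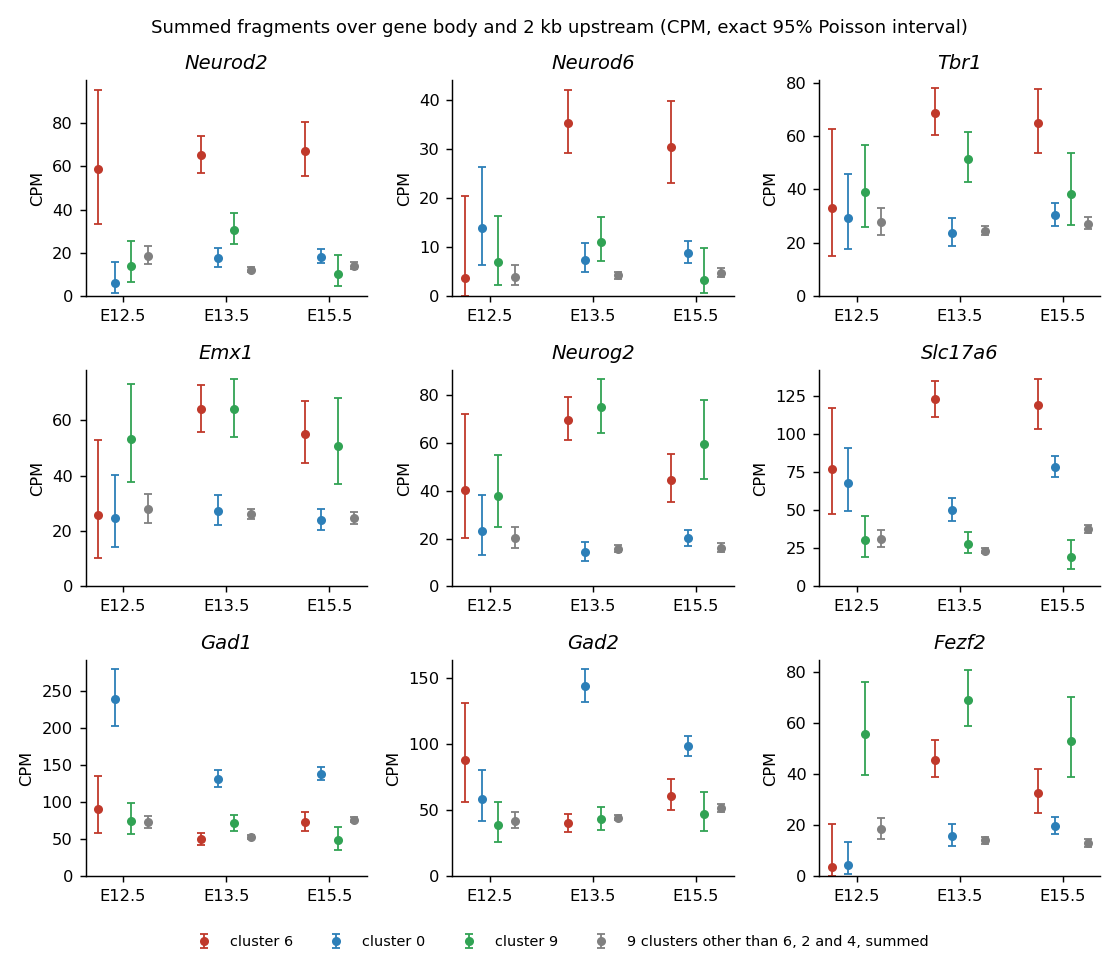
Summed fragments over each gene in CPM (y axis, starting at 0) by stage (x axis) in clusters 6, 0 and 9 and in the 9 other clusters summed; points are sums over all nuclei of 1 library and bars are exact 95% Poisson intervals, which cover counting error only. Neurod2 in cluster 6 lies between 58.6 and 67.1 CPM at all 3 stages, Gad1 lies below cluster 0 at each stage, and within cluster 6 the intervals are widest at E12.5.

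Regional genes were compared next, since glutamatergic neurons arise in many parts of the nervous system. Of 7 telencephalic genes Emx1, Emx2, Lhx2 and Otx1 were higher than in cluster 0 and Six3 was lower, beside 1.32% and 1.29% of all genes. Otx1, which acts in deep-layer neurons and in patterning of the rostral brain, had ratios of 1.95 and 2.20, and Six3, a ventral and rostral regulator, had 0.388 and 0.498. A fragment over Neurod2 or Neurod6 was found in all 5 nuclei of cluster 6 at E12.5, in 70 of 76 at E13.5 and in 44 of 50 in the E15.5 library. In cluster 0 it was found in 7 of 11, 35 of 87 and 74 of 172 nuclei.

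Glutamatergic genes of the brainstem and spinal cord had median ratios of 1.51 for E13.5 and 1.02 for E15.5, and 11 and 8 of 15 stood above 1. In that list 3 genes were higher and 0 lower, beside 1.32% and 1.29% of all genes, and Slc17a6 and Lhx2 were among the 3. Slc17a6, the vesicular glutamate transporter of subcortical and of young cortical neurons, had 123 and 119 CPM against 50.3 and 78.7, with ratios of 2.45 (2.06 to 2.93) and 1.51 (1.29 to 1.78). Lhx2 is also a cortical selector gene, and it had 153 and 144 CPM against 69.8 and 75.2. None of the Hox genes, which are used in the hindbrain and spinal cord, was called either way against cluster 0, and no gene of caudal inhibitory neurons was. Against the 9 other clusters 6 of 12 Hox genes of groups 1 to 4 were lower, beside 3.33% of all genes in that comparison. Hoxb3 was among the 6, with 20.3 and 33.8 CPM against 45.6 and 58.3. Of these, Hoxa3 and Hoxa4 share fragments, as do Hoxb3 and Hoxb4.

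A few members of other neuronal lists were also higher than in cluster 0, where 1.32% of all genes were higher and 1.29% lower. They were Pax6 and Zic2 of the cerebellar list, Phox2a of the motor list, the axon guidance receptor Epha3 and, in the Cajal-Retzius list, Nhlh2 alone. Pax6 had ratios of 1.62 and 2.50 and is used by cortical progenitors as well. Phox2a fell below 1 when only the promoter was counted. Reln, the secreted marker of Cajal-Retzius cells, had 312 and 291 CPM against 326 and 280. Of receptor genes, the kainate receptor Grik3 and the GABA-A receptor subunit Gabra3 were lower, with ratios of 0.648 and 0.665 and of 0.524 and 0.406. Of 19 pan-neuronal genes Nefl, a neurofilament subunit of maturing neurons, was lower, at 9.45 and 16.1 CPM against 22.2 and 33.3, and none was higher. The pan-neuronal medians of 0.879 and 0.830 lay below those of all genes.

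Markers of cells outside the nervous system were compared between clusters 6 and 0 as well. The mesenchyme list summed to 268 CPM at E13.5 and 307 at E15.5 in cluster 6, and to 258 and 265 in cluster 0, with none of 8 genes called. The erythroid list summed to 85.0 and 75.4 CPM against 79.4 and 64.0, while the erythroid-like cluster 5 had 600 and 711. The endothelial list had medians of 0.684 and 0.942 and the white blood list of 1.26 and 1.20, with no gene of either called. Of the globin genes, Hba-a1 had 5 and 2 fragments in cluster 6 and Hbb-bt had 0 and 1. Of 7 cartilage and bone genes Col9a1 was higher, and of 7 muscle genes Myh3 was higher and Acta1 lower, beside 1.32% and 1.29% of all genes. No epithelial or liver gene was called.

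The genes at the extremes of the ranking against cluster 0 were partly of low count. Ranked by the library with the smaller change, the 12 highest were Ly6g6e, Tmem91, Neurod2, Neurod6, Krtap16-1, Phgr1, Ifi44l, Ccl2, Gm3646, Olfr459, Ly6g6d and Fam209, in this order. Tmem91 had 44.9 and 53.2 CPM against 7.96 and 13.6, and Ly6g6e had 16.6 and 20.5 against 2.75 and 4.69. The others of known function are mainly not neuronal, such as the chemokine Ccl2 with 23 and 16 fragments and the hair keratin-associated Krtap16-1 with 39 and 27. The counted spans of Ly6g6d and Ly6g6e overlap, as do those of Tmem91 and Exosc5 and of Phgr1 and Disp2. Among the 12 lowest were Ptgdr, Olfr452, Klk4, Vmn1r38, Olfr550, Spaca3, Sstr4, Lor, Krt2, 6030408B16Rik and Amtn. Sstr4, a somatostatin receptor, had 1.43 and 2.77 CPM in cluster 6 against 10.4 and 8.79, from 5 fragments at each stage. Ptgdr, a prostaglandin receptor, had 2.29 and 1.66 against 12.1 and 7.33.

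Against the 9 other clusters together, glutamatergic and bHLH genes led the ranking. The 12 highest were Neurod6, Neurod2, Neurod1, Krtap16-1, Gm11214, 1700012A03Rik, 7530416G11Rik, Slc17a6, Nhlh2, Nrn1, Ly6g6e and Tmem91. Neurod6 was 8.25 times as high at E13.5 (6.45 to 10.5) and 6.32 times at E15.5 (4.47 to 8.85). Nrn1, a surface protein that promotes neurite growth, had 123 and 113 CPM against 29.5 and 38.2. Of the pallial list 11 of 15 genes were higher (medians 2.42 and 1.99) and of the bHLH list 7 of 10. Over all 20202 genes 1.98% were higher and 3.33% lower. Of 15 forebrain GABAergic genes none was called either way. The motor list had Isl2, Chat and Slc18a3 higher, with Chat, which makes acetylcholine, at 65.3 and 69.3 CPM against 40.0 and 29.5. The counted spans of Chat and Slc18a3 overlap and share fragments, so these are not separate calls. Of the mesenchyme list 4 of 8 were lower, Twist2, Col1a2, Col3a1 and Meox1. The lowest genes were Olfr1104, Cyp2b13, Hcar1, Skint1, Trim10, Hesx1, Vamp8, Capns2, Serpina1b, 6030408B16Rik, Pramef12 and Olfr557, of which Vamp8 had 8.30 and 4.44 CPM against 34.7 and 20.8.

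Cluster 9 shared the pallial genes in part but differed in genes of neural progenitors. Of 16242 genes 2.23% were higher in cluster 6 than in cluster 9 and 2.46% lower, and of 13 progenitor genes 10 were lower and 0 higher. Sox1, Sox2, Sox3, Hes1, Hes5, Nes, Vim, Notch1, Fabp7 and Slc1a3 made up that group, with list medians of 0.467 and 0.400 beside 0.996 and 1.02 for all genes. Hes1, an effector of Notch signalling that maintains progenitors, had 34.4 and 29.4 CPM in cluster 6 and 106 and 94.7 in cluster 9. Notch1 itself had 194 and 179 CPM against 462 and 450. The neuronal genes Tubb3, Dcx and Ina were higher in cluster 6, with ratios of 1.95 and 3.47 for Tubb3. Of the 15 pallial genes Neurod2, Neurod6 and Slc17a7 were higher too, and Fezf2 was lower, at 45.8 and 32.7 CPM against 69.4 and 53.0. The other pallial genes were not called, and the list medians were 1.28 and 1.17, with 8 and 11 genes above 1. Of 7 telencephalic genes 0 were called, with medians of 0.788 and 0.965. The bHLH list went both ways, with Nhlh2 higher in cluster 6, 5 of 10 genes above 1 at both stages and 5 below 1 at both.

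Single nuclei were described with the summed CPM of a list in each nucleus. A gene with many fragments weighs more in such a sum, and Nfib had the largest count of the pallial list. The pallial list had a median of 2986 CPM over the 76 nuclei of cluster 6 at E13.5 (1057 to 7991) and 1844 over the 87 nuclei of cluster 0 (404 to 3627). At E15.5 the medians were 2821 CPM (1228 to 6509) and 1585 (235 to 4402). The GABAergic list had medians of 404 and 389 CPM in cluster 6 and 836 and 656 in cluster 0. The ranges overlapped for both lists at both stages, so no cut on either list alone would separate the nuclei. In the plot of both lists, nuclei of cluster 6 reached the larger pallial sums and those of cluster 0 the larger GABAergic sums. The pallial medians at E13.5 and E15.5 were 2559 and 2385 CPM in cluster 9, nearer to cluster 6 than to cluster 0. In the mesenchyme-like cluster 1 they were 1763 and 1759 CPM, near those of cluster 0. The GABAergic medians were 536 and 581 CPM in cluster 9 and 406 and 370 in cluster 1, the latter near those of cluster 6. At E12.5, with 5 nuclei of cluster 6 and 11 of cluster 0, the pallial medians were close, at 1718 and 1656 CPM. The GABAergic medians at E12.5 had the opposite order, with 679 CPM in cluster 6 and 438 in cluster 0.

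**Figure D3:**
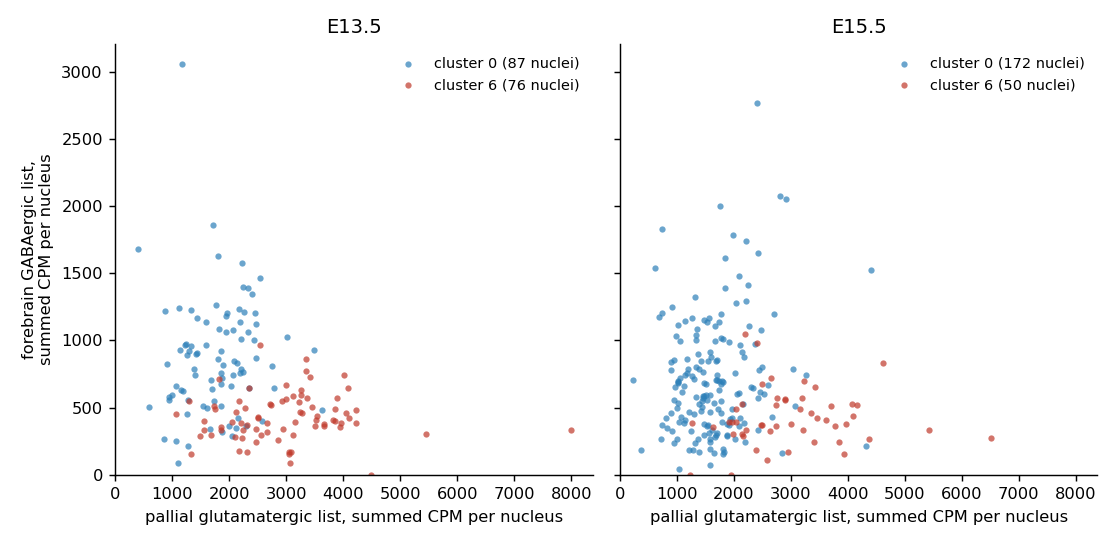
Each point is a nucleus of cluster 6 (red) or cluster 0 (blue), placed by its summed CPM over the pallial glutamatergic list (x axis) and over the forebrain GABAergic list (y axis), at E13.5 (left) and E15.5 (right). The median of cluster 6 on the x axis is 2986 CPM at E13.5 and 2821 CPM at E15.5, against 1844 and 1585 in cluster 0, and the ranges overlap.

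Accessibility at a single gene is sparse, so nuclei were thinned to 10000 fragments each before counting how many held a fragment. After thinning, 28.9% of nuclei of cluster 6 had a fragment over Neurod2 at E13.5 (exact 95% interval 19.1 to 40.5) and 38.3% at E15.5 (24.5 to 53.6). The shares in cluster 0 were 9.20% and 8.54%. Cluster 9 had 24.0% at E13.5 (13.1 to 38.2), which overlaps cluster 6, and none of 19 nuclei at E15.5 (0 to 17.6). In cluster 5, an erythroid-like class that should not use the gene, the share was 4.38% at E13.5. Neurod6 gave 22.4% and 19.1% in cluster 6, 2.30% and 6.71% in cluster 0 and 1.88% in cluster 5 at E13.5. Gad1 gave 21.1% and 23.4% in cluster 6 and 54.0% and 52.4% in cluster 0, with an interval of 7.81% to 18.6% in cluster 5 at E13.5. The shares of cluster 6 for Neurod2 and Neurod6 thus stood above cluster 0, and the Gad1 share stood nearer to cluster 5 than to cluster 0 at E13.5. Without thinning, 80.3% and 78.0% of nuclei had a fragment over Neurod2, at median depths of 67888 and 41338, against 20.5% in cluster 5 at E13.5 at a median of 62521. The thinned shares leave out 3 nuclei of cluster 6 at E15.5 that held fewer fragments.

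Between E13.5 and E15.5 no pallial gene of cluster 6 was called, while 3 bHLH genes were lower at the later stage. Of 17541 genes 6.04% were called higher at E15.5 and 5.98% lower, at 1.5-fold with an interval off 1, and with 1 library per stage the stage and the library cannot be told apart. In cluster 0 the shares were 3.96% and 5.07% of 18958 genes. Among the 15 pallial genes, Neurod2 had a ratio of 1.03 (0.821 to 1.29). Of the bHLH list 3 of 10 were lower at E15.5, Neurog1 at 0.573, Neurog2 at 0.635 and Eomes at 0.482. Eomes went from 50.7 CPM to 24.4 in cluster 6 and from 14.8 to 19.1 in cluster 0, where it was not called.

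Of the Hox genes of groups 1 to 4, 5 of 12 were higher at E15.5 in cluster 6. They were Hoxb3, Hoxc4, Hoxd1, Hoxd3 and Hoxd4, with ratios between 1.57 and 4.26, and the list had a median of 1.55 with 11 of 12 above 1. In cluster 0 the list had 3 higher (Hoxb4, Hoxd3 and Hoxd4), a median of 1.29 and 9 of 12 above 1. The counted spans of Hoxd3 and Hoxd4 overlap and share fragments, so these are not separate calls. Hoxd3 had 35.5 and 68.2 CPM, and in cluster 0 it went from 43.9 to 68.9. Gad2 of the 15 GABAergic genes and the dopamine receptors Drd1 and Drd2 of the 11 striatal genes were higher as well, at 1.52, 2.22 and 1.61 times. Etv1 of the GABAergic list was lower. Over all genes of cluster 6, 6.04% were called higher and 5.98% lower. At the promoter alone the ratio of Gad2 was 0.991.

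The ends of the stage ranking held sex-linked and low-count genes. The lowest at E15.5 were Uty, Eif2s3y, Ddx3y and Kdm5d on chromosome Y, followed by 4632433K11Rik, Nodal, Mocs2 and Gm10604. Fragments on Y made up 0.030% and 0.015% of cluster 6 at these stages. They made up 0.029% and 0.012% of cluster 0 and 0.033% and 0.012% of all nuclei, so the drop was not particular to cluster 6. The embryos were not sexed, and a difference of stage and one of embryo sex cannot be told apart in these 4 genes. Nodal, a TGF-beta ligand, went from 20.6 to 3.33 CPM. The highest were Aplnr, Vmn2r12, Cks1brt, Olfr1183, Dpt, Tigd4, Pou2af1 and Wfdc8. Wfdc8 turned to a ratio of 0.641 without the nuclei deeper than 2 times the library median. Aplnr, the apelin receptor, had 0.859 and 11.6 CPM, a ratio of 13.6 (4.05 to 71.0). Of the 17 fragments of Vmn2r12 at E15.5, 11 were in 1 nucleus.

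Distal chromatin was surveyed in windows of 500 bp that lay more than 1 kb from any annotated TSS. Windows were called at 3-fold with an interval off 1 in both libraries, among those with at least 10 fragments in clusters 0 and 6 together at each stage. Of 85594 windows 5137 (6.00%) were higher in cluster 6 and 357 (0.417%) lower, in 4130 and 330 separate regions. Cluster 6 had more fragments than cluster 0 in the tested windows as a whole, 15.2% against 11.5% at E13.5 and 14.6% against 11.7% at E15.5, and the median ratio of all windows was 1.22 and 1.03. The higher windows lay a median of 65.8 kb from the nearest TSS and the lower windows 56.5 kb, against 31.8 kb for all tested windows. Inside a gene were 50.2% of the higher, 49.3% of the lower and 55.2% of all tested windows.

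The 6 windows at the top of each direction were ranked by the interval bound nearest 1, and the sequences of the first 3 of each are shown because they carry the sharpest contrasts between the 2 neuron clusters. Each is the run of 300 bases of the mm10 plus strand, 5′ to 3′, in or next to the window with the most fragment ends of the cluster where it was higher. Capitals mark matches, on either strand, to the words searched: the E-boxes CAGATG and CAGCTG, the homeodomain word TAATTA, the T-box word AGGTGTGA, the POU word ATGCAAAT, the GATA word AGATAA, the Sox word ACAAAG, the palindromic Ebf motif and the full palindromic NFI motif. None of these 12 windows overlapped an annotated exon.
Upstream of Klhl29, chr12:6638906-6639205: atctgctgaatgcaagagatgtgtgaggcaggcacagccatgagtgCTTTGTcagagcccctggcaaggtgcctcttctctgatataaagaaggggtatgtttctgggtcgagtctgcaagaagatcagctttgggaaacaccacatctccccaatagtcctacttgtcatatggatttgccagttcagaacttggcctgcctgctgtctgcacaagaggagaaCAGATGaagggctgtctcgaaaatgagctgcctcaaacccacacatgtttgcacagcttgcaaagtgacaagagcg
Dnah9 intron, chr11:66046843-66047142: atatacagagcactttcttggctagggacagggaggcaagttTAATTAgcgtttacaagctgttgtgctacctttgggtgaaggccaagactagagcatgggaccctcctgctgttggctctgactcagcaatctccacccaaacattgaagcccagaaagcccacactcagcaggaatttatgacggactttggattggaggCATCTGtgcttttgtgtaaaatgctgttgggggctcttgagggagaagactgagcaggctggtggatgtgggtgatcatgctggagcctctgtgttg
Agbl1 intron, chr7:76788638-76788937: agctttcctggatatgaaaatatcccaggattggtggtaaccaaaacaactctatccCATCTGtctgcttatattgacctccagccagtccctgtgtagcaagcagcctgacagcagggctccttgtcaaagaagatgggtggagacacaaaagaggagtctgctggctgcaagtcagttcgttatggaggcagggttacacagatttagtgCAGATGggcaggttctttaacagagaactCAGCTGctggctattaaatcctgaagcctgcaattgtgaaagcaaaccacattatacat
Mfap3l intron, chr8:60657561-60657860: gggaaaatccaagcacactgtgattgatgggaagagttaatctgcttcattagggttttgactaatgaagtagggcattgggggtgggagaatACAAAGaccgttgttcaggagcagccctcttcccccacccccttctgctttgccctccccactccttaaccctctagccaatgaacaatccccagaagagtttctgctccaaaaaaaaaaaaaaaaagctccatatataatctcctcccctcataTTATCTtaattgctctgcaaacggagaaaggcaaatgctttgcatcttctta
Downstream of Snx10, chr6:51675502-51675801: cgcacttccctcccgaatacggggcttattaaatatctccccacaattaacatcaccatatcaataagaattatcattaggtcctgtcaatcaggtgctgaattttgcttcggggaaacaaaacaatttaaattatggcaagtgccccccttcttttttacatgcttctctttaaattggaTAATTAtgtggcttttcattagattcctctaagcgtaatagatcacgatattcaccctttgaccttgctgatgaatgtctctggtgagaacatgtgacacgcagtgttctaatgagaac
Upstream of Slc32a1, chr2:158563814-158564113: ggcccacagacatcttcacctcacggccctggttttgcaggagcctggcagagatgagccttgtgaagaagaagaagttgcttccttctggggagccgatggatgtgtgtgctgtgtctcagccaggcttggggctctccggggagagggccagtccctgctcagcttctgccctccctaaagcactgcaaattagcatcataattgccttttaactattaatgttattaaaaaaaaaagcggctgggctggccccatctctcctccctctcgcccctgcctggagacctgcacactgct

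The leading higher windows held few fragments in cluster 0. The window chr12:6639001-6639500, 1263.6 kb upstream of Klhl29 and in no gene, held 37 and 29 fragments in cluster 6 at E13.5 and E15.5, and 0 and 1 in cluster 0. At E13.5 the exact 95% interval of the ratio began at 10.2, and at E15.5 the ratio was 109 (18.1 to 4452). In cluster 9 it held no fragment at either stage. The window chr11:66046501-66047000 in an intron of Dnah9, a ciliary dynein, held 52 and 29 fragments against 1 and 4, and 21 and 3 in cluster 9. The window chr7:76788501-76789000 in an intron of Agbl1 held 43 and 25 fragments against 0 and 3, with an interval that began at 11.97 at E13.5 and a ratio of 31.3 (9.56 to 162) at E15.5. All 3 windows held at least 25 fragments in cluster 6 at both stages, but each held 0 in the 5 nuclei of E12.5. The next were chr19:21742001-21742500, 36.1 kb upstream of Cemip2, chr8:87668001-87668500 in Zfp423 and chr1:41027501-41028000 near Tmem182.

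The leading lower windows held few fragments in cluster 6. The window chr2:158563501-158564000, 47.0 kb upstream of Slc32a1, held 0 fragments in cluster 6 at both stages and 15 and 35 in cluster 0, and the intervals of its ratio ended at 0.299 and 0.418. Slc32a1 was itself lower over the gene. The window chr6:51675501-51676000 near Snx10 held 0 and 0 fragments against 13 and 37. The window chr8:60657501-60658000 in Mfap3l held 1 and 0 fragments against 23 and 38. The others were chr5:135832501-135833000 in Srrm3, chr1:167448501-167449000 in Lrrc52 and chr2:158557001-158557500, which is nearest to Arhgap40.

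Windows whose nearest gene was pallial were more often higher than tested windows in general. Of the 412 tested windows whose nearest gene was on the pallial list, 83 (20.1%) were higher and 0 lower, beside 6.00% and 0.417% of all windows. Of 14 pallial genes with a tested window, 13 had a higher one. Nfib had 21 higher windows of 63, the most of any gene, and Nfia 13 of 42. The bHLH list had 26 of 157 (16.6%), the motor list 10 of 62 (16.1%) and the axon guidance list 85 of 592 (14.4%), the last spread over 21 of 25 genes. The GABAergic list had 4 of 201 (1.99%) higher and 5 (2.49%) lower. Around genes of the diencephalon and midbrain the share was 0.935%, and around Hox genes of groups 1 to 4 it was 0 of 14. Other genes with many higher windows were Galnt17 (19 of 143), Castor2 (18 of 70) and Sstr2 (17 of 106). Castor2 also had 3 lower windows, Galnt17 had 1 and Sstr2 had 0.

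The E-box CAGATG was the word whose share differed by the most percentage points between the higher windows and all tested windows. It occurred in 61.5% of the higher windows, 28.0% of the lower windows and 40.1% of all tested windows, counted over 500 bp on both strands. CAGCTG, which has the same E-box form with another centre, was at 36.6%, 33.9% and 33.1%. TAATTA was at 19.7%, 23.5% and 12.9%, above all windows in both directions. The POU word ATGCAAAT was too, at 5.20%, 7.28% and 3.43%. The GATA word AGATAA was at 21.1%, 26.05% and 19.5% and the Sox word ACAAAG at 37.4%, 42.0% and 35.5%. The Ebf motif was at 1.81%, 2.52% and 2.09%. A difference in percentage points also depends on how common a word is. The T-box word AGGTGTGA was at 3.33% against 2.69%, and the NFI motif was too rare to compare, at 0.156% against 0.127%. The GC content was 47.9% in higher, 47.5% in lower and 50.2% in all windows. All 6 leading higher windows had CAGATG within the 300 bases shown or searched, and none of the 6 leading lower windows did. A match is only a run of letters and no binding was measured.

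Windows called in 1 library were described in the other library, where the call had not used the fragments. Alone, E13.5 gave 11.7% of 151696 windows higher and 5.02% lower, and E15.5 gave 8.64% of 207956 higher and 1.72% lower. The 17708 windows higher at E13.5 had a median ratio of 2.51 at E15.5, and 76.9% of the 17658 with a fragment there stood above 1. The 17959 windows higher at E15.5 had a median ratio of 2.81 at E13.5, and 81.5% of the 17806 with a fragment there stood above 1. For windows called lower, the medians in the other library were 0.537 and 0.715. Over all windows tested in both libraries the median ratio was 1.22 at E13.5 and 1.03 at E15.5. Called again in the other library were 5137 windows of either higher set. Of the 7612 windows lower at E13.5 and the 3586 lower at E15.5, 357 were called again. The other library called 60 and 54 of these higher, and it called 54 and 60 of the higher windows lower. The clusters themselves were made from both libraries, so this is no independent support for the cluster. At the centre of windows called higher in the other library, cluster 6 had 314 fragment ends per 1000 windows, scaled to depth, in the E13.5 library and 364 in the E15.5 library, against 98.9 and 118 in cluster 0.

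**Figure D4:**
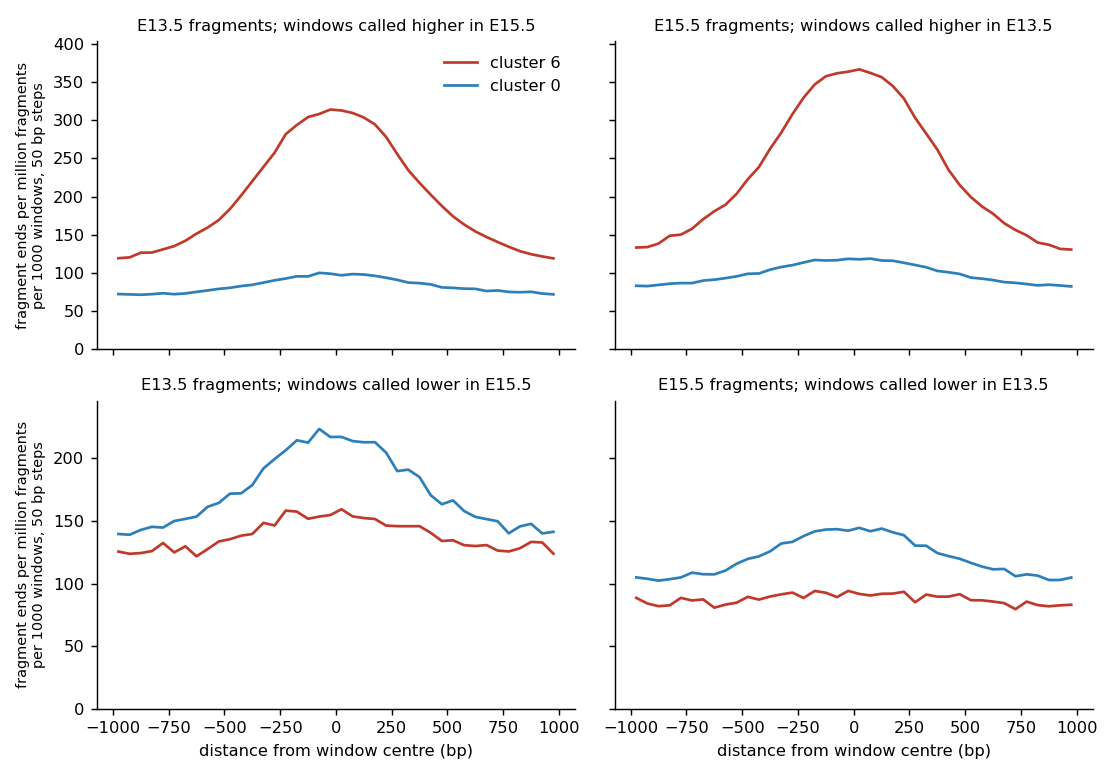
Fragment ends per 1000 windows, scaled to the fragments of the cluster, in steps of 50 bp (y axis) by distance from the window centre (x axis) in cluster 6 (red) and cluster 0 (blue), for windows called higher (top) or lower (bottom) in the other library. In the top panels cluster 6 has 314 at E13.5 and 364 at E15.5 near the centre, over 119 and 133 at the left edge, and in the bottom panels cluster 0 lies above cluster 6.

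The difference was then followed in single nuclei. At E13.5 the share of fragments in windows called higher at E15.5 had a median of 3.32% over the 76 nuclei (1.21 to 5.74) and 1.04% over the 87 nuclei of cluster 0 (0.711 to 1.91). All 76 nuclei stood above the median of cluster 0, and 62 above its highest nucleus. At E15.5 the median was 4.01% (1.36 to 12.1) against 1.14% (0.744 to 3.54), with all 50 nuclei above the median of cluster 0 and 26 above its highest. The windows called in both libraries held 0.935% of the fragments of the 5 nuclei at E12.5, which the call did not use, against 0.330% in cluster 0 at that stage. At E13.5 and E15.5 they held 1.95% and 2.30% in cluster 6 and 0.270% and 0.338% in cluster 0, the contrast for which they were chosen. In cluster 9 they held 0.920% and 1.00%, in cluster 1 0.396% and 0.453%, and in cluster 5 0.230% and 0.423%. The clusters were made from fragments of these same nuclei. The separation of nuclei and the E12.5 share are thus no independent support for the cluster.

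Among the nuclei of cluster 6 these shares moved with the TSS share and with depth. The share in the higher windows varied with the share of fragments at TSSs, with Spearman's rho of 0.815 over 76 nuclei at E13.5 and 0.777 over 50 at E15.5. In cluster 0 rho was 0.632 and 0.586. The share was lower in deeper nuclei, at rho of -0.391 and -0.615. In the 19 nuclei with the lowest share at E13.5, the median TSS share was 6.70% and the median depth 108170, and in the 19 with the highest they were 14.3% and 60608. The bHLH list had medians of 271 and 644 CPM in these groups, and of 232 and 557 in the 13 lowest and 13 highest at E15.5. Its rho was 0.563 and 0.564 at these stages, while the pallial list had 0.50 and only 0.138 and the progenitor list 0.471 and 0.361. The caudal inhibitory list had rho of -0.214 at E13.5 and -0.618 at E15.5, and Hox genes of groups 1 to 4 had 0.0084 and -0.464. In cluster 0 the caudal inhibitory list had -0.204 and -0.185, and the Hox genes had 0.042 and -0.023. All points of a stage share a library, and the part of the TSS share and of depth in the difference between the clusters was not tested.

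**Figure D5:**
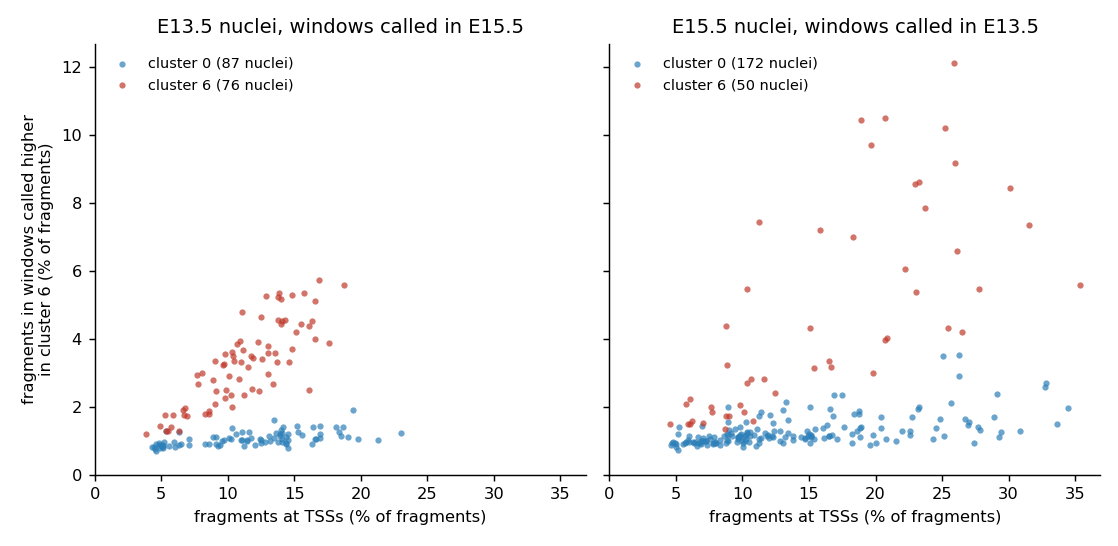
Each point is a nucleus of cluster 6 (red) or cluster 0 (blue), placed by its share of fragments at TSSs (x axis, percent) and its share of fragments in windows called higher in cluster 6 in the other library (y axis, percent). The median on the y axis is 3.32% in cluster 6 and 1.04% in cluster 0 at E13.5, 4.01% and 1.14% at E15.5, and it increases along the x axis in cluster 6.

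The nuclei of cluster 6 were clustered again, and the groups found depended on the method. Fragments in 5 kb bins outside the listed genes were reduced to components, of which component 2 followed depth (Pearson's r of -0.850 with log depth) and was left out. Component 1, with r of 0.480, was under the limit of 0.5 and was kept. Ward clustering gave 128 and 3 nuclei as 2 groups and 128, 2 and 1 as 3 groups. With k-means the split was 115 and 16, or 116, 12 and 3. The genes of these groups were not compared, and no subtype was named.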

How the data were processed

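Single-nucleus ATAC-seq fragments were analysed from 3 libraries, 1 for each embryonic stage. Per the file headers, the authors made the deposited fragment files with Cell Ranger ATAC 2.0.0 on mm10, which shifts fragment ends to the Tn5 insertion and keeps each duplicate group once. The count deposited beside each fragment is its number of read pairs. The submitters' processing notes also name Seurat 4.1.0 and Signac 1.6.0. A deposited table gave library, cluster number and whole-number counts for 1879 nuclei. The study integrated the nuclei with its spatial profiles by anchors and then Harmony, and its methods do not say how the cluster numbers were set. Of the deposited columns, 16 were not used.

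Fragments over the gene body and 2 kb upstream (GENCODE vM21) were summed per cluster and library for 21602 of 21938 protein-coding genes and scaled to CPM. Genes of the Pcdh and Ugt clusters (79) and spans over 500 kb (231) were left out, and a symbol that occurred more than once was kept once. Overlapping genes share fragments, and strand cannot be told. A call needed at least 20 fragments in both groups together in each library. Doublets were not removed, and nuclei deeper than 2 times the library median were left out as an alternative. No test was run, because the clusters were made from these fragments and each stage was 1 library. Sums carry exact Poisson, shares exact Clopper-Pearson and ratios exact 95% intervals, for counting error only. Calling was tested on simulated data.

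Genes named were every listed gene and, in each direction, the 12 called genes with the largest change in the library where it was smaller. Between stages they were the 8 genes, and among windows the 6, with the interval bound farthest from 1. The members and lists were chosen with earlier results of these data known. Of listed genes, 13 had spans over 500 kb and Drgx had no counted gene of that name. Python 3.11.15, numpy 2.4.6, pandas 2.3.3, scipy 1.17.1 and matplotlib 3.10.9 were used. Alternatives changed the counted feature, scaling, fold, minimum count, nuclei, weights, window and library. Results on some genes are not reported here.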

Additional observations from a re-analysis of the deposited data

Results flagged for a closer look

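Of 18005 genes, 53 were higher in cluster 6 than in cluster 0 at E13.5 and lower at E15.5, and 65 were the reverse. Of the genes named or listed here, 4 went opposite ways, all lower at E13.5 and higher at E15.5, and the difference between stages was not tested. Wfdc8, Cks1brt and Pou2af1 were named because they ranked among the genes highest at E15.5 over E13.5 within cluster 6. Their shared direction is therefore tied to that choice. The whey acidic protein family gene Wfdc8 had ratios of 0.391 and 1.71, so that the later ratio was 4.36 times the earlier, and its change between stages within cluster 6 turned to 0.641 without the nuclei deeper than 2 times the library median. Ibsp, the bone sialoprotein gene, had 0.460 and 2.36, a change of 5.14 times. Cks1brt had 0.223 and 2.16, a change of 9.68 times on 6 and 20 fragments in cluster 6. Pou2af1, a coactivator of B cells, had 0.305 and 1.65, a change of 5.42 times, and 10 of its 38 fragments at E15.5 came from 1 nucleus.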

How the results depend on the processing

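No paired analysis was run, because the results come from no test, and clusters were already compared within each library. Against cluster 0, the calls of 237 higher and 233 lower genes became 126 and 92 with the promoter window, 59 and 64 at 2-fold, and 367 and 573 with the mean over nuclei. On either library alone they were 1045 to 1101 higher and 1298 to 1550 lower, since a single library had to pass. Of the pallial genes 12 were called under each alternative other than 2-fold (7) and the promoter (6). At the promoter 29 of 63 followed genes had enough fragments to be compared, of which 17 kept their call and Phox2a reversed to 0.843. Without the nuclei deeper than 2 times the median, 43 of 63 followed genes kept their call and 20 did not. Against the other clusters, 401 higher and 673 lower became 88 and 164 at 2-fold and 837 and 1438 with clusters weighted equally. They were 427 and 397 at the promoter, 589 and 421 with median scaling, and 566 and 1808 with the mean over nuclei. Either library alone gave 998 to 1329 higher and 1802 to 2668 lower. At the promoter 39 of 82 followed genes kept their call, 39 lost it and 4 reversed, among them Skor2 (0.940), Col9a1 (0.242) and Phgr1 (0.0). Between stages, 1059 higher and 1049 lower became 474 and 658 at the promoter, 321 and 337 at 2-fold and 1717 and 2422 with the mean over nuclei. Without the deep nuclei 1599 were lower, and of 60 followed genes 31 kept their call, 28 lost it and Wfdc8 reversed (0.641). Without the nucleus with the most fragments in each gene, an alternative added after seeing the data, 678 were higher and 1322 lower. At the promoter 12 of 21 followed genes kept their call, and Gad2 passed to the other side of 1 (0.991). For windows, 5137 higher and 357 lower became 1837 and 109 of 18683 tested with a minimum of 20 fragments (9.83% higher in place of 6.00%), and 5063 (3.42% of 148115) and 650 at 1000 bp. With cluster 0 thinned to the fragments of cluster 6, also added later, they were 3396 (11.7%) and 118 of 29035, and either library alone gave 17708 to 17959 higher and 3586 to 7612 lower. The TSS share of 10.5% and 11.7% became 15.3% and 15.99% with 1000 bp on either side and 11.3% and 16.3% thinned to 1000 fragments. By k-means 16 and 15 nuclei lay outside the largest of 2 and 3 groups, against 3 and 3. The cause of these changes was not tested. Cluster 6 had 5 nuclei at E12.5, which limits every value of that stage.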

Other observations

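Several lists not described above were compared between clusters 6 and 9. In cluster 6, 2 of 21 axon guidance genes (Plxna4 and Cntn2) and 3 of 8 Cajal-Retzius genes (Trp73, Lhx5 and Nhlh2) were higher and none of either list lower, beside 2.23% and 2.46% of all genes. Cntn2, an adhesion protein of growing axons, had 114 and 121 CPM at E13.5 and E15.5 against 63.0 and 74.4. Of 8 glial genes 3 were lower, Aldh1l1 and the oligodendrocyte lineage factors Olig1 and Olig2, with Olig2 at 18.3 and 14.4 CPM against 30.2 and 39.5.

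Between stages, the AMPA receptor subunit Gria2 had 75.9 CPM in cluster 6 at E13.5 and 118 at E15.5 and was called higher at the later stage. Barhl1, Etv1, Sema6a and Sox3 were called lower, and with 1 library per stage these differences cannot be told apart from differences between libraries. The lists held 12 glutamate receptor genes (Gria2), 15 GABAergic (Etv1), 21 axon guidance (Sema6a) and 13 progenitor genes (Sox3). Barhl1 was of the 15 glutamatergic genes of the brainstem and spinal cord. Over all genes 6.04% were called higher and 5.98% lower, so these single calls say little about their lists.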
